A study of Mus musculus with 8 samples.

Results

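The Ifi200 genes, also called PYHIN or HIN200 genes, lie side by side on mouse chromosome 1 and were examined here as 9 members taken by name, Ifi203, Ifi204, Ifi205, Ifi206, Ifi207, Ifi208, Ifi211, Ifi213 and Mndal, of 16889 genes in the count table. The cell groups in which they were measured were clusters built on expression and named by their markers or leading genes. The family was proposed with the response of these mice already known, so its counts are a description and not independent evidence of a response. All 9 members passed the filter on low counts. On GRCm38 the locus runs from Aim2 to Ifi205, chr1:173350879-174031810, and also holds Ifi209, Ifi214 and Ifi202b, which are not among the 9 and were followed beside them.

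Many Ifi200 proteins carry a HIN domain that binds DNA, and many carry a pyrin domain through which proteins of this kind assemble. Not every member need carry both, and the domains of single members were not examined here. A HIN domain is therefore not assumed for any single member, Ifi208 and Ifi213 included. The family is known as a group of interferon-inducible genes of leukocytes, and its relative Aim2 is the cytosolic DNA sensor that starts an inflammasome. Type I interferon signals through its receptor and JAK kinases to a DNA element called the interferon-stimulated response element (ISRE) in the promoters of its target genes, whereas interferon-gamma acts largely through a different element, GAS.

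All animals were female CD98hcΔCX3CR1 littermates of 6 to 12 weeks, which carry CD98hc flox/flox and Cx3cr1 CreER-YFP. The 4 control mice received corn oil and the 4 cKO mice received tamoxifen, 100 µl of a 20 mg/ml solution, on 5 days, and colonic lamina propria cells were taken on day 7. Tamoxifen starts the excision of part of CD98hc, the heavy chain of an amino acid transporter, in cells that use the Cx3cr1 promoter. As only cKO mice received tamoxifen, effects of the drug and of the deletion cannot be told apart. Deletion is limited to cells that use or have used Cx3cr1, so cells of the sort need not all carry it. CD11b+ cells with CCR2 or CD64 were sorted, and each mouse was captured in a well of its own with a 3′ single-cell kit that counts unique molecular identifiers (UMIs). Levels are given in CPM, the depth-scaled unit of the field, as a share of all UMIs counted in the cells concerned and, since a 3′ kit counts the ends of transcripts, without division by length.

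After filtering, 3213 cells remained, 1863 of control and 1350 of cKO mice, with 497531 to 3762314 UMIs per mouse. Control mouse 3 and cKO mouse 5 stood apart with 85 and 83 cells, against 349 to 724 in the others, and Scrublet called 24 of the 83 cells of cKO mouse 5 doublets. The 8 wells shared 25 barcode strings, 8 of them among the cells kept. The targeted gene Slc3a2, which encodes CD98hc, was read over all cells of each mouse. Its level was 358, 264, 233 and 493 CPM in control mice 1 to 4. It was 291, 357, 323 and 309 CPM in cKO mice 5 to 8, with overlapping groups. This 3′ count lies outside the excised part and does not check the deletion. Cells were divided into a preset number of 9 clusters, built without the family and without the interferon and DNA sensing genes described here. Clusters were called monocyte-like, macrophage-like, macrophage-like with low UMI counts, dendritic cell-like, lymphoid-like and stromal-like from their markers. The other 3 had no marker among their leading genes and are named by these, Hes1 and Ier5, Ccl24 and Arg1, or Dmkn and Slpi. Dmkn- and Slpi-led cells nevertheless held 14350 CPM of summed monocyte markers, against 16150 CPM in monocyte-like cells. Hes1- and Ier5-led and Ccl24- and Arg1-led cells held 19830 and 14590 CPM of macrophage markers, against 63900 CPM in macrophage-like cells. In the clusters compared below, the log2 fold change of Slc3a2 ran from -0.72 in Ccl24- and Arg1-led to 0.39 in lymphoid-like cells. None was called (edgeR adjusted p of at least 0.205). In Ccl24- and Arg1-led and in monocyte-like cells each cKO mouse compared lay below each control mouse.

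The sequences upstream of the start sites are shown first, since the response element of interferon targets can be read in them. Promoters of RefSeq on GRCm38.p6, from 250 bases before to 50 after a start site, were searched for the core of the ISRE, GAAANNGAAA, and for a GAS element, TTCNNNGAA, on both strands. Of the 9 members, 8 had at least one entry, and Ifi204 had none. A match to the ISRE core was found in 9 of 10 member promoters, against 3.44% of 32851 mouse promoters of the same length and 56.8% of the promoters of the interferon-stimulated genes listed further below. No GAS match was found in the 10 member promoters, against 8.3% of all promoters, which says only that these letters are absent from these windows. A match of each of these 8 genes is printed in capitals with its surroundings on the gene's strand, 5′ to 3′, and the number gives its first base relative to the start site.
Ifi208 (chr1:173673592-173673641, + strand, -58): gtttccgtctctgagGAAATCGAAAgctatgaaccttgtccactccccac
Ifi213 (chr1:173599311-173599360, - strand, -73): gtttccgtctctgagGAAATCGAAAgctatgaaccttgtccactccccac
Ifi206 (chr1:173491324-173491373, - strand, -40): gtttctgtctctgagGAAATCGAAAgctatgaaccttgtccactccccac
Ifi203 (chr1:173942493-173942542, - strand, -35): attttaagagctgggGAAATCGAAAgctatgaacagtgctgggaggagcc
Mndal (chr1:173880189-173880238, - strand, -36): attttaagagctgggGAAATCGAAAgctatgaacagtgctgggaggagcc
Ifi207 (chr1:173741816-173741865, - strand, -41): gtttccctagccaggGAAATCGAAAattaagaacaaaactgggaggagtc
Ifi211 (chr1:173913049-173913098, - strand, -37): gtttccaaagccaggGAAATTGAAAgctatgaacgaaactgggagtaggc
Ifi205 (chr1:174031855-174031904, - strand, -134): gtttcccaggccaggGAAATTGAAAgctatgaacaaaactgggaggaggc

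The windows resembled each other in groups. The windows of Ifi208 and Ifi213 were identical over 50 bases, and that of Ifi206 differed from both at 1 base. Those of Ifi203 and Mndal were also identical to each other and differed from the Ifi208 window at 21 bases. The windows of Ifi205 and Ifi211 differed from each other at 4 bases and from that of Ifi207 at 7 and 9. The letters GAAATCGAAA, with a CpG in the middle, occurred in 16 of 32851 promoters (0.0487%), 6 of which belonged to members and another to Ifi214, whereas GAAATTGAAA of Ifi205 and Ifi211 occurred in 38 (0.116%). Neither motif was found in the promoters of the relatives Aim2 and Ifi209, though that of Ifi209 held taaatcgaaa, 1 base off the core. Of these relatives, Ifi209 was higher in cKO mice and Aim2 was not, as given below. The count of Ifi209 is not separate from that of Ifi214, with which it shares transcript-end sequence. A match is a description of the letters and not a site at which binding was measured.

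Reads of this kit come from the 3′ end, so the members were also compared there. Of the 58-base words in the last 400 bases of each transcript, 84.8% of those of Ifi205 and 82.5% of those of Ifi211 also occurred in the other gene. Mndal shared 15.2% of its words with Ifi211, and Ifi208 shared 13.7% with Ifi213, while Ifi203, Ifi204, Ifi206 and Ifi207 shared none. The gene model of Mndal, chr1:173849126-173942491, also overlaps Ifi211 and Ifi203 on the same strand. The values of Ifi205, Ifi211 and Mndal are therefore uncertain as single genes and are also given as a sum. Ifi205 and Ifi211 were counted in nearly equal numbers, with a ratio of 1.04 to 1.15 in control mice and 0.979 to 1.03 in cKO mice.

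The comparison of all cells of each mouse asks how the family differed between cKO and control colonic cells. The 9 members together were higher in cKO mice, and 8 of them passed the test one by one. Ifi208, Ifi213 and Ifi206, which were scarce in control mice, differed by 7.90- to 11.9-fold, Ifi204 by 3.10-fold and the abundant members Ifi211 and Mndal by 1.88- and 1.91-fold. The family sum was 1521, 1794, 2310 and 1890 CPM in control mice 1 to 4 and 3035, 3099, 4759 and 4151 CPM in cKO mice 5 to 8. Every cKO mouse was above every control mouse, and the ratio of the means was 2.0. Of all 11387 genes tested, 341 were called higher in cKO (2.99%) and 169 lower at a false discovery rate of 0.05 with edgeR, and for 4% every cKO mouse lay above every control mouse, as for 7 of the 9 members. Since the family was proposed from this contrast, nothing is read from its count against these shares. In sums over all cells, fewer cells of a type that makes a transcript and less of it per cell cannot be told apart. The median log2 fold change was 1.02 over the members and -0.03 over all genes tested.

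**Figure D1:**
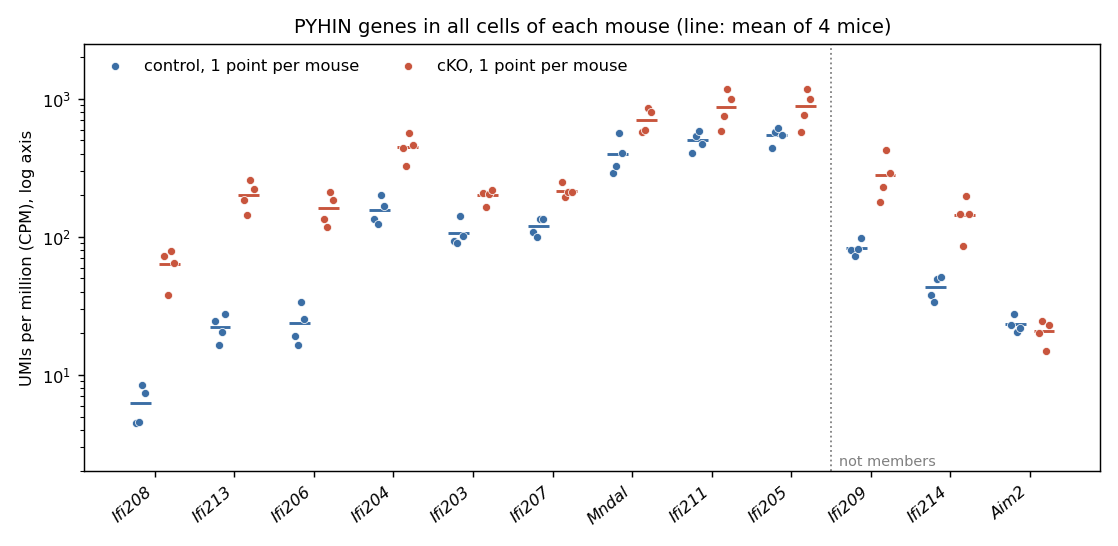
Level in CPM (log axis) of the 9 members and 3 relatives in all cells of each of 4 control and 4 cKO mice, 1 point per mouse with a line at the mean. Ifi208, Ifi213 and Ifi206 sit far apart between the groups, Ifi211 and Ifi205 overlap, and so do the Aim2 values.

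Ifi208 and Ifi213 have identical ISRE windows, as do Ifi203 and Mndal, which differed 2.03- and 1.91-fold. Whether the windows bear on the size of a difference was not tested. Ifi208 was found at 4.52, 4.59, 8.49 and 7.40 CPM in control mice and at 72.4, 38.1, 79.2 and 65.2 CPM in cKO mice. The groups did not overlap, and the fitted difference was 11.9-fold (log2 fold change 3.57 ± 0.30, SE, edgeR adjusted p = 7.14e-05, n = 4 and 4). Ifi213 was read at 24.7, 16.5, 20.4 and 27.6 CPM in control and at 185, 144, 257 and 222 CPM in cKO mice, a 9.65-fold difference (3.27 ± 0.23, SE, edgeR adjusted p = 2.98e-05) without overlap. Ifi206, whose window differs at 1 base, was found at 19.1, 16.5, 34.0 and 25.6 CPM in control and at 135, 117, 212 and 186 CPM in cKO mice. It rose 7.90-fold (2.98 ± 0.27, SE, edgeR adjusted p = 0.000119), with all 4 cKO mice higher. With Ifi208 and Ifi213 summed because of their shared 3′ words, the log2 fold change was 3.33 (edgeR adjusted p = 2.94e-05).

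Ifi204 encodes p204, a nuclear and cytoplasmic DNA-binding protein of macrophages. Its level was 135, 124, 200.3 and 168 CPM in control mice and 442, 329, 570 and 462 CPM in cKO mice, again without overlap. It rose 3.10-fold (log2 fold change 1.63 ± 0.21, SE, edgeR adjusted p = 0.00205). Ifi203 (93.0 to 143 CPM in control and 165 to 220.0 CPM in cKO mice) and Ifi207 (100.0 to 136 CPM against 196 to 249 CPM) rose by 1.02 ± 0.18 and 0.95 ± 0.16 on the log2 scale (SE, edgeR adjusted p = 0.0104 and 0.00703). Fitted differences were 2.03- and 1.94-fold, and their groups did not overlap.

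The abundant members made up most of the family. In control mice, Ifi205, Ifi211 and Mndal held 29.1% ± 2.31, 26.8% ± 2.23 and 20.8% ± 2.85 of all family UMIs (SD, n = 4). Mndal, named after the human myeloid nuclear differentiation antigen, was read at 290, 326, 567 and 406 CPM in control and at 577, 594, 857 and 798 CPM in cKO mice. The highest control mouse, replicate 3, lay just below the lowest cKO mouse, and the difference was 0.94 ± 0.23 on the log2 scale (SE, edgeR adjusted p = 0.0396). Ifi211 was found at 407, 538, 589 and 473 CPM against 589, 747, 1178 and 995 CPM. Its groups touched, with control mouse 3 just above cKO mouse 5, and the log2 fold change was 0.91 ± 0.22 (SE, edgeR adjusted p = 0.0377). Ifi205 was found at 440, 578, 615 and 545 CPM against 577, 769, 1189 and 993 CPM, and its difference of 0.80 ± 0.22 (SE) did not pass the test (edgeR adjusted p = 0.0571). The sum of these 3 genes gave 0.87 ± 0.21 (SE, edgeR adjusted p = 0.0392). Calls of Mndal and Ifi211 were lost without doublets, and without any one of cKO mice 6, 7 and 8 or control mice 1 and 2, which left 6 members called, whereas Ifi205 gained a call without cKO mouse 5.

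The make-up of the family over all cells differed between the groups. Each of Ifi208, Ifi213 and Ifi206 held in control mice between 0.256% and 1.63% of family UMIs, and in cKO mice Ifi213 held 5.37% ± 0.592, Ifi206 4.29% ± 0.338 and Ifi208 1.71% ± 0.486 (SD, n = 4). The share of Ifi204 was 8.34% ± 0.954 in control and 12.1% ± 1.76 in cKO mice. For these 4 genes each cKO mouse had a larger share than each control mouse, and for Ifi205 and Ifi211 each had a smaller one. In means, the smaller shares were not seen with the dendritic cell-like, lymphoid-like and stromal-like clusters left out. Mean Ifi205 and Ifi211 were there 209 and 211 CPM of a family sum of 1232 CPM in control mice. In cKO mice they were 779 and 788 CPM of 3690 CPM. The part of the cell mix in the shares was not tested. These shares come from the contrast by which the family was proposed and carry no test.

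The groups also differed in which cells each mouse contributed. Dendritic cell-like cells made up 20.2% to 27.9% of the cells of control mice and 4.75% to 9.68% of those of cKO mice, and they held the highest control level of Ifi205, as given below. Monocyte-like cells made up 3.53% to 10.4% and 15.7% to 20.1%, and Dmkn- and Slpi-led cells 0% to 2.37% and 9.64% to 32.0%, both without overlap. The summed monocyte markers were 1643 to 3358 CPM in control and 7091 to 10464 CPM in cKO mice, and the neutrophil markers 24.5 to 52.5 CPM and 58.04 to 90.5 CPM. The part of these shares in the all-cell differences was not tested. Of all Ifi205 UMIs, 77.8% ± 6.4 came from dendritic cell-like cells in control mice and 28.9% ± 10.5 in cKO mice (SD, n = 4). With the dendritic cell-like, lymphoid-like and stromal-like clusters left out, 1273 control and 1140 cKO cells remained. In these, Ifi205 was read at 204, 163, 223 and 246 CPM in control and at 560, 576, 1130 and 851 CPM in cKO mice. The groups did not overlap, and Ifi205 differed 3.86-fold (log2 fold change 1.95 ± 0.24, SE, edgeR adjusted p = 0.000244). These cells still include the monocyte-like and the Dmkn- and Slpi-led ones, whose shares differed, and the pooled Ifi205 level of the latter was 1490 CPM in cKO mice. Within the clusters kept that could be compared, the log2 fold change of Ifi205 was smaller, 0.91 in monocyte-like, 1.31 in low-UMI macrophage-like, 1.69 in Hes1- and Ier5-led and 1.73 in Ccl24- and Arg1-led cells. Ifi211 gave 1.95 ± 0.24 and Mndal 1.64 ± 0.20 (SE, edgeR adjusted p = 0.000244 and 0.000245). Ifi207 gave a smaller difference than in all cells and lost its call, with 0.51 ± 0.19 (SE, edgeR adjusted p = 0.174). In this setting 8 of 9 members were called higher, where 1.95% of 10847 genes were, and the family sum was 1022 to 1445 CPM in control and 2759 to 4756 CPM in cKO mice.

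Other PYHIN genes of the locus were mixed. Ifi209 (72.2 to 97.6 CPM in control and 179 to 425 CPM in cKO mice) and Ifi214 (34.0 to 51.5 CPM against 85.3 to 198 CPM) rose by 1.88 ± 0.25 and 1.87 ± 0.26 on the log2 scale (SE, edgeR adjusted p = 0.00226 and 0.00264). They share 61.5% of their 3′ words with each other, so these are not separate measurements. Aim2, the inflammasome sensor, was read at 22.9, 27.8, 20.4 and 21.9 CPM in control and at 20.1, 24.8, 14.9 and 23.2 CPM in cKO mice. Its groups overlapped, and the log2 fold change was -0.09 ± 0.20 (SE, edgeR adjusted p = 0.849). Ifi202b, whose protein lacks the pyrin domain, had 3 UMIs in all 8 mice and was not tested.

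The 5 tested genes on either side of the locus were Tagln2, Cfap45, Slamf8, Dusp23 and Cadm3 starting before Aim2 and Olfr433, Fh1, Kmo, Opn3 and Chml after Ifi205. None of these 10 genes was called higher in cKO mice. Olfr433, which lies closest to Ifi205, gave a log2 fold change of -0.59 ± 0.65 (SE, edgeR adjusted p = 0.66). Kmo fell by 1.54 ± 0.23 and Fh1, which overlaps it, fell by 1.0 ± 0.19 on the log2 scale (SE, edgeR adjusted p = 0.00467 and 0.0139). Kmo is one of the dendritic cell markers used here, and the summed level of the 9 dendritic cell markers in the table was 647 to 713 CPM in control and 161 to 249 CPM in cKO mice. Its part in the Kmo result was not tested.

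Across cell clusters of control mice, the family sum was highest in dendritic cell-like cells at 2958 ± 475 CPM (SD, n = 4), followed by monocyte-like cells at 2255 ± 191 CPM (n = 3). Ccl24- and Arg1-led cells (1299 ± 292 CPM), macrophage-like cells with low UMI counts (1050 ± 393 CPM) and Hes1- and Ier5-led cells (1041 ± 282 CPM, n = 3 each) came next and did not differ beyond their spread. Macrophage-like cells, marked by C1q genes and Pf4, held 659 ± 84.3 CPM and lymphoid-like cells 344 ± 60.6 CPM (n = 3 each). The stromal-like cells of the only mouse with at least 20 of them held 429 CPM. Every monocyte-like value (2045 to 2416 CPM) was below the lowest dendritic cell-like one (2496 CPM), and above all macrophage-like ones (603 to 756 CPM). The order of these 2 clusters depended on the clustering, since with all genes included the family sum was 2984 CPM in monocyte-like and 2909 CPM in dendritic cell-like control cells. Cells were clustered on their own expression, so these levels are a description without a test.

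**Figure D2:**
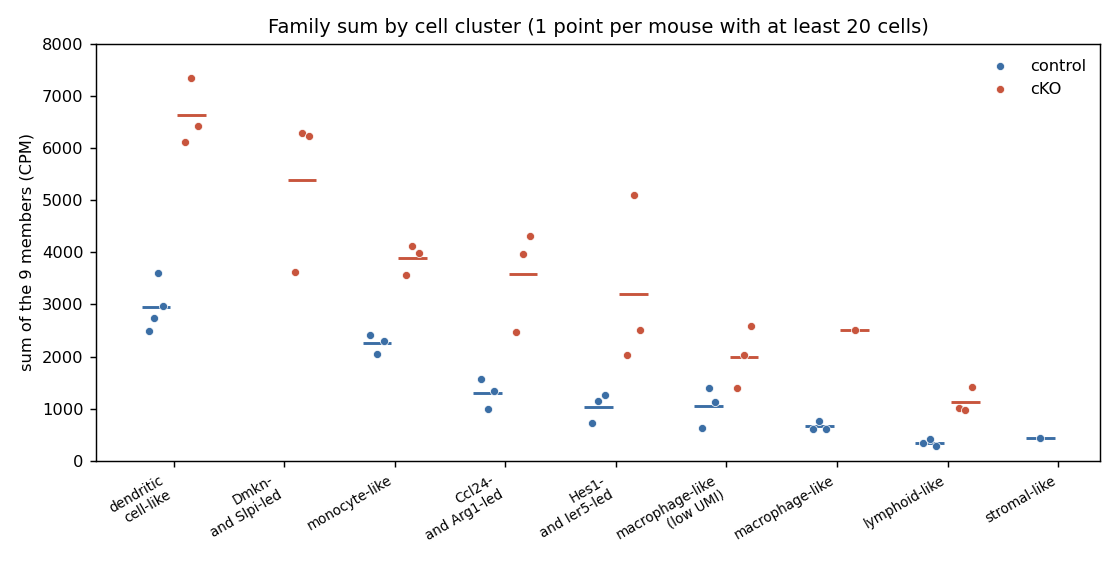
Sum of the 9 members in CPM by cell cluster, 1 point per mouse with at least 20 cells in the cluster, with a line at the mean. The 6 clusters with at least 3 mice in both groups lie higher in cKO than in control mice on average, and dendritic cell-like cells hold the highest control values (2496 to 3606 CPM).

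The members did not follow the same order across clusters. In control mice Ifi205 was read at 1055 ± 96.3 CPM in dendritic cell-like cells, 444 ± 75.3 CPM in monocyte-like cells and 73.5 ± 33.3 CPM in macrophage-like cells. Ifi211 and Mndal had the same order, with 946 ± 109.5 and 677 ± 227 CPM in dendritic cell-like cells. Ifi204 was instead highest in monocyte-like cells (417 ± 87.2 CPM) and lower in dendritic cell-like cells (96.6 ± 51.7 CPM) than in macrophage-like ones (144 ± 8.27 CPM), though control mouse 3 reached 174 CPM in the dendritic cell-like cells. Ifi213 and Ifi206 were also highest in monocyte-like cells, at 89.6 ± 13.2 and 94.7 ± 13.8 CPM, against 8.34 ± 7.30 and 7.38 ± 2.67 CPM in dendritic cell-like cells. Over the clusters with at least 3 control mice, Ifi207 ranged between 9.64 ± 8.36 CPM in lymphoid-like and 208 ± 19.4 CPM in Ccl24- and Arg1-led cells (all SD, n = 3 or 4).

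Over the 45 sums of a cluster and mouse, the correlation of 2 members on the log2(CPM + 10) scale had a median of 0.60 over 36 pairs. It was 0.99 for Ifi205 with Ifi211, which share sequence, 0.92 for Ifi213 with both Ifi206 and Ifi208, and 0.35 for Ifi203 with Ifi207, the lowest pair. These sums share mice, libraries and depth.

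Dendritic cell-like cells were split further by UMIs of Xcr1 or Clec9a, which mark type 1 conventional dendritic cells, and of Cd209a, which marks type 2 cells, a division made after the values were seen. In 193 control cells with Xcr1 or Clec9a only, the pooled level of Ifi205 was 1439 CPM, and in 134 with Cd209a only it was 211 CPM. The same cells of cKO mice gave 2820 CPM (43 cells) and 912 CPM (24 cells). Ifi211 followed with 1321 and 152 CPM in control cells. Ifi213 was lower in the cells with Xcr1 or Clec9a than in those with Cd209a, 4.43 against 14.3 CPM in control and 27.0 against 139 CPM in cKO mice, the last from 14 and 25 UMIs. Cells were pooled over mice here, so no error between mice is attached.

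Within clusters, a comparison was possible where at least 3 mice of each group had 20 cells, which held for 6 clusters. All 9 members had a positive log2 fold change in all 6, and how many passed the test differed with the cluster. Dendritic cell-like and Hes1- and Ier5-led cells had 7 members called higher, Ccl24- and Arg1-led cells 6, monocyte-like cells 2 and the lymphoid-like and low-UMI macrophage-like cells none. Over the 11360 genes tested, the shares called higher were 0.326%, 0.396%, 0.845%, 0.308%, 0.044% and 0.0528% in the same order. In simulated counts, 40 of 200 genes changed 4-fold were recovered in lymphoid-like and 16 in low-UMI macrophage-like cells. These genes were drawn at random from all tested, changed up or down, with a preset spread between mice. The recovery is therefore not that of the members. The absence of a call in these clusters is not read as the absence of a difference. Control mouse 3 entered only the dendritic cell-like comparison, and cKO mouse 5 entered none. Ifi213 and Ifi208 were called in 4 clusters each, Ifi206, Ifi211 and Mndal in 3, Ifi204 and Ifi205 in 2, Ifi207 in 1 and Ifi203 in none.

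**Figure D3:**
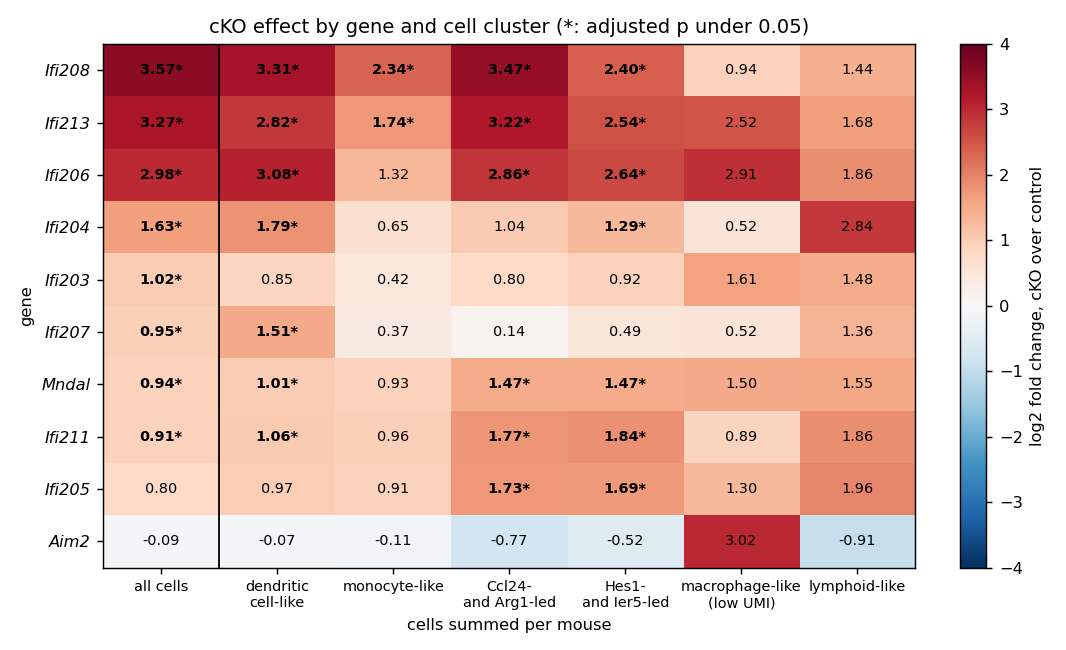
Log2 fold change of cKO over control for the 9 members and Aim2 in all cells and in 6 cell clusters, with an asterisk where the adjusted p was under 0.05 (edgeR). All member values are positive, from 0.15 for Ifi207 in Ccl24- and Arg1-led cells to 3.57 for Ifi208 in all cells.

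In Ccl24- and Arg1-led cells, which also held Saa3 and Il1rn among their leading genes, Ifi213 was read at 28.5, 5.83 and 30.5 CPM in control mice 1, 2 and 4 and at 157, 264 and 285 CPM in cKO mice 6, 7 and 8. The groups were far apart, with a log2 fold change of 3.22 ± 0.39 (SE, edgeR adjusted p = 2.43e-07). Ifi205 was found at 322, 192 and 258 CPM against 518, 963 and 1019 CPM, a difference of 1.73 ± 0.29 (SE, edgeR adjusted p = 5.58e-05). Ifi207 was at 186, 216 and 222 CPM against 238, 183 and 246 CPM in the same cells. Its groups overlapped, and its log2 fold change of 0.15 ± 0.21 (SE, edgeR adjusted p = 0.928) was the smallest of any member in any cluster.

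In dendritic cell-like cells Ifi207 gave a different picture. It was found at 75.1, 57.3, 71.1 and 55.7 CPM in control mice 1 to 4 and at 198, 199 and 194 CPM in cKO mice 6 to 8. It rose 2.85-fold (log2 fold change 1.51 ± 0.22, SE, edgeR adjusted p = 9.26e-06), with little spread in cKO mice. The test of whether the cKO effect differed between the 6 clusters gave an unadjusted p of 0.000989 for Ifi207, the lowest of the members, and an edgeR adjusted p of 0.455. No member passed this test, in which 9 of 11360 genes did, and the same test with the mouse as a random term (limma-voom) gave adjusted p-values of at least 0.585. Effects that were called in some clusters and not in others are thus not shown to differ.

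Ifi206 (36.3 to 104 CPM in cKO and 5.21 to 10.95 CPM in control mice) and Ifi204 (278 to 377 CPM against 64.2 to 174 CPM) rose in dendritic cell-like cells by 3.08 ± 0.45 and 1.79 ± 0.29 on the log2 scale (SE, edgeR adjusted p = 9.83e-06 and 0.000107). Ifi208 was at 0, 0.651, 0 and 4.56 CPM in control and at 12.1, 31.4 and 15.9 CPM in cKO mice, so its fitted fold rests on very few control UMIs. Ifi205 was read at 923, 1052, 1149 and 1094 CPM against 2090, 2554 and 2019 CPM. The groups did not overlap, with a ratio of means of 2.11, yet the test over all genes did not call it (log2 fold change 0.97 ± 0.25, SE, edgeR adjusted p = 0.0621). Its sum with Ifi211 and Mndal was called (1.01 ± 0.25, SE, edgeR adjusted p = 0.0495). Without cKO mouse 8, which had 42 of these cells, Ifi204 and Ifi207 were the 2 members called, and 4 members were called without cKO mouse 7 or without control mouse 1.

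In monocyte-like cells, marked by Chil3 and Ly6c2, Ifi213 was read at 105, 83.7 and 80.5 CPM in control and at 254, 309 and 276 CPM in cKO mice. It rose by 1.74 ± 0.36 on the log2 scale and Ifi208 by 2.34 ± 0.48 (SE, both edgeR adjusted p = 0.00566). These were already the cells with the highest control level of Ifi206, which was at 83.7 to 110 CPM in control and 198 to 248 CPM in cKO mice and gave 1.32 ± 0.35 (SE, edgeR adjusted p = 0.0769). The family sum was 2045 to 2416 CPM in control and 3564 to 4132 CPM in cKO monocyte-like cells. Fitted alone, this cluster gave 6 members called higher, and without control mouse 1 it gave none.

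Hes1- and Ier5-led cells, with Axl among their leading genes, had 7 members called, with Ifi206 at 20.7, 48.6 and 30.8 CPM in control and at 111, 329 and 192 CPM in cKO mice (log2 fold change 2.64 ± 0.43, SE, edgeR adjusted p = 0.000181). The cKO mouse 7 was the highest for every member in this cluster, with a family sum of 5092 CPM against 2021 and 2504 CPM in mice 6 and 8. These calls depended on the clustering and on single mice. A clustering on all genes, in which the best matching cluster had a Jaccard index of 0.386, called none, leaving out cKO mouse 7 left 3 and leaving out control mouse 1 left none.

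Lymphoid-like cells had the lowest family level of the 6 clusters, and the 3 cKO mice (969 to 1423 CPM) were all above the 3 control mice (290 to 410 CPM). Ifi204 was found at 7.38, 23.6 and 14.2 CPM in control and at 60.9, 125 and 135 CPM in cKO mice, a log2 fold change of 2.84 ± 0.66 (SE, edgeR adjusted p = 0.0585). No single member passed the test in these cells with edgeR, though 7 had an unadjusted p under 0.05 and DESeq2 called 3. The sum of Ifi205, Ifi211 and Mndal was called at 1.76 ± 0.34 (SE, edgeR adjusted p = 0.00644). Macrophage-like cells with low UMI counts had a median of 1091 UMIs per cell, 5 members with an unadjusted p under 0.05 and 0 called with edgeR and with DESeq2. There the family sum was 623, 1397 and 1130 CPM in control and 1390, 2025 and 2582 CPM in cKO mice, with overlap.

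Macrophage-like cells of full depth and Dmkn- and Slpi-led cells could not be compared at 20 cells per mouse, because 349 of 403 cells of the former were from control mice and 261 of 281 of the latter from cKO mice. With sums from 10 cells, Ifi206 and Ifi213 were called higher in cKO macrophage-like cells (log2 fold change 2.43 ± 0.54 and 2.30 ± 0.52, SE, edgeR adjusted p = 0.0312 and 0.0347), where 0.079% of 11391 genes were. The family sum was 619, 756 and 603 CPM in control mice 1, 2 and 4 and 3123 CPM in the 10 cells of control mouse 3, above the 1336 to 2518 CPM of the cKO mice. The Dmkn- and Slpi-led cells held 3626, 6301 and 6239 CPM of the family in cKO mice 6 to 8. Their Ifi205 level of 911 to 1610 CPM there was above that of all control clusters except the dendritic cell-like one. The 20 control cells of this cluster gave a pooled family level of 2656 CPM from 122 UMIs.

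The share of cells with a UMI was higher in cKO mice, and so were the UMIs in such cells when pooled over mice. Each cell was thinned to 1000 UMIs to compare shares at equal depth, which left out 99 control and 79 cKO cells. A UMI of any member was then present in 48.3% to 60.3% of the cells of control mice and in 70.5% to 83.8% of those of cKO mice. Pooled over mice, cells with a UMI of any member had 2.71 family UMIs on average in control and 4.64 in cKO cells. Also pooled, at least 5 different members were seen in 1.76% of control and 13.1% of cKO cells. At least 3 were seen in 13.04% and 41.2%. No error between mice is attached to these pooled values. Cell types differed between the groups, and their part in the shares and pooled values was not tested. Unthinned, 75.3% to 83.96% and 86.5% to 93.4% of cells had a UMI of any member.

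**Figure D4:**
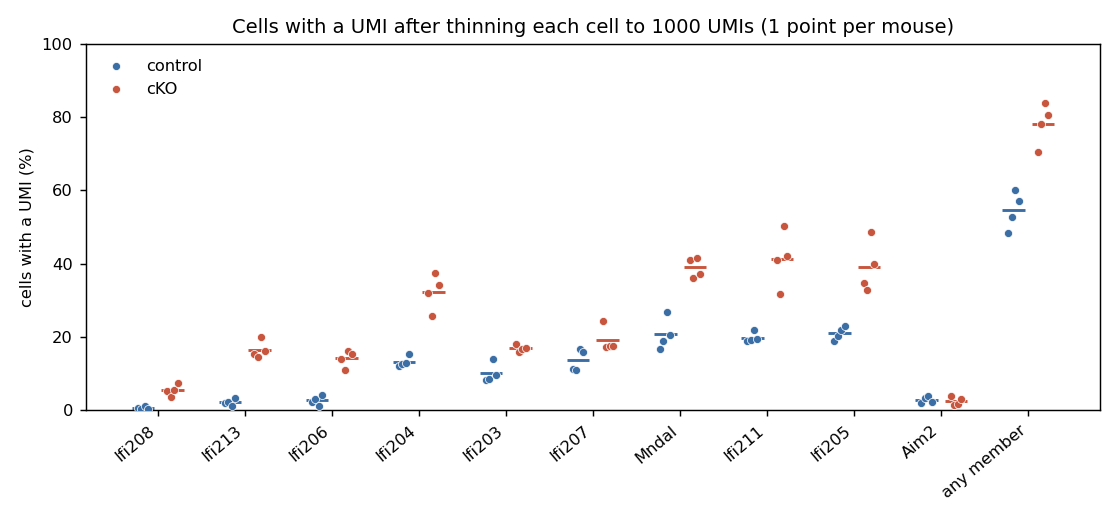
Percent of cells with a UMI of each member, of Aim2 and of any member after thinning each cell to 1000 UMIs, 1 point per mouse with a line at the mean of 4 mice. For all 9 members every cKO mouse lies above every control mouse, while the Aim2 values overlap (2.06 to 3.85% in control and 1.54 to 3.85% in cKO mice).

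The share of cells with a UMI differed for scarce and abundant members. Ifi213 was detected in 1.28% to 3.47% of the thinned cells of control mice and in 14.5% to 19.9% of those of cKO mice. Its UMIs per positive cell, pooled over mice, were 1.11 in control and 1.31 in cKO cells. Ifi208 was detected in 0.205% to 1.28% and in 3.69% to 7.41% of cells. For Ifi205 the shares were 18.9% to 23.1% and 32.9% to 48.6%, with 1.67 and 2.06 pooled UMIs per positive cell. Free RNA can place UMIs in cells that do not make a gene, and no cluster here is known to lack the whole family. Stromal-like control cells, with a median of 4885 UMIs, had a UMI of Ifi205 in 9.23% of 65 thinned cells against 44.3% of 420 dendritic cell-like cells with a median of 9446 UMIs. For Ifi208 it was 0 of 65 stromal-like cells, which allows a share of up to 4.62% at this depth and covers counting error only. Without thinning, a UMI of Ifi208 was found in 1.17% of 427 control and 10% of 100 cKO dendritic cell-like cells.

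The family stood among other interferon genes that moved the same way. Of 40 interferon-stimulated genes in a list made for this work, 38 were tested in all cells. Of these, 32 were called higher and 0 lower, where 2.99% of all genes tested were called higher. Their median log2 fold change was 1.45, against 1.02 for the Ifi200 members and -0.03 for all genes. The list, like those that follow, was made with earlier results of these data known, so its counts are a description and not independent evidence. Ifi44 was read at 0.917 to 5.09 CPM in control and at 28.1 to 62.3 CPM in cKO mice (log2 fold change 4.34 ± 0.39, SE, edgeR adjusted p = 0.000119). Oas3, an oligoadenylate synthetase of the antiviral response, gave 3.08 ± 0.25 and the ubiquitin-like modifier Isg15 gave 2.65 ± 0.33 (SE, edgeR adjusted p = 7.14e-05 and 0.00133). Ifi208 and Ifi213 lay above Oas3 in size and below Ifi44. By cluster, 14 of these 38 genes were called higher in Hes1- and Ier5-led, 21 in Ccl24- and Arg1-led, 12 in dendritic cell-like, 7 in monocyte-like, 2 in lymphoid-like and 1 in low-UMI macrophage-like cells, and none was called lower. Over all genes tested the shares called higher were 0.396%, 0.845%, 0.326%, 0.308%, 0.044% and 0.0528% in the same order.

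Upstream of the family, 5 of 16 tested genes of interferon receptors, ligands and signaling were called higher in all cells and 1 lower. Their median was 0.28, and 2.99% of all genes tested were called higher. Irf7, the transcription factor that amplifies type I interferon responses, was read at 70.7, 62.1, 104 and 160 CPM in control and at 661, 574, 910 and 732 CPM in cKO mice. It rose by 2.97 ± 0.29 on the log2 scale (SE, edgeR adjusted p = 0.000244), without overlap. Usp18, which limits signaling at the interferon receptor, rose by 1.83 ± 0.33 (SE, edgeR adjusted p = 0.0104). Irf8, a transcription factor of dendritic cells and monocytes, fell by 0.89 ± 0.18 (SE, edgeR adjusted p = 0.0204), in the same samples in which the dendritic cell-like share was lower, and the part of that share was not tested. Irf7 was called in 5 of the 6 clusters, all but the lymphoid-like one, with 2.02 ± 0.36 in dendritic cell-like cells (SE, edgeR adjusted p = 0.000417).

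Of the DNA sensing and inflammasome genes, the pathway in which Aim2 and Ifi204 are placed, 4 of 15 tested were called higher and 0 lower. Their median was 0.50, and 2.99% of all genes tested were called higher. Zbp1, a sensor of Z-form nucleic acids, rose by 2.0 ± 0.27, the kinase Ikbke by 1.21 ± 0.25 and Samhd1, which degrades nucleotides, by 0.93 ± 0.22 on the log2 scale (SE, edgeR adjusted p = 0.00226, 0.0212 and 0.0376). Zbp1 was also called in Ccl24- and Arg1-led and in dendritic cell-like cells, and no other gene of this list was called in a cluster.

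**Figure D5:**
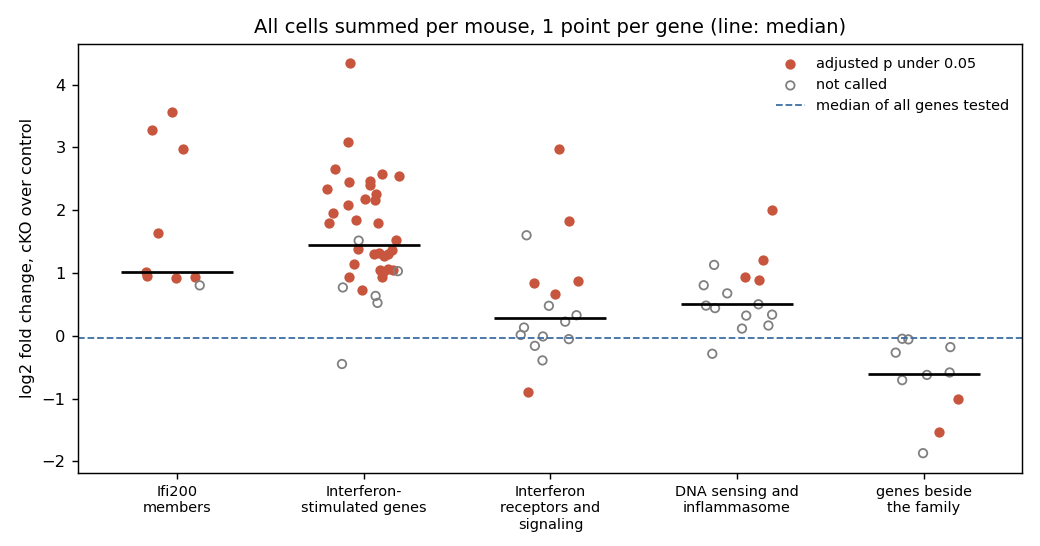
Log2 fold change of cKO over control in all cells, 1 point per gene with a line at the median, for the 9 members, 3 gene lists and the 10 genes beside the locus, filled where the adjusted p was under 0.05 (edgeR). The members (median 1.02) and the interferon-stimulated genes (1.45) lie above the median of all genes (-0.03, dashed), and none of the genes beside the locus was called higher.

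Over the 45 sums of a cluster and mouse, the 10 genes outside the family most like its sum among 4698 genes with a mean of at least 20 CPM were Phf11c, Usp18, Phf11b, Phf11a, Phf11d, Trim30a, Hspa8, Actb, Irf7 and Serf2. Pearson's r ran between 0.83 for Phf11c and 0.76 for Serf2, with a median of 0.05 over all genes. With the 23 sums of control mice alone, none of the 10 remained among the first 10, which were then led by Rab32 (r = 0.87). In those sums r was 0.76 for Phf11c, 0.67 for Usp18 and 0.55 for Irf7. Points share mice, library and depth, so no p is given.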

How the data were processed

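Colonic lamina propria cells of 4 control and 4 cKO mice were measured with a 10x Genomics 3′ kit, with a well for each mouse. The deposited matrix holds UMI counts for 5947 barcodes and 16889 genes, which the authors made with Cell Ranger and STAR 2.5.3a on mm10 (Ensembl 84) with EYFP added and without down-sampling. Wells were assigned to mice through the labels, and 0 columns were left without a sample. The replicates are separate mice.

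Cells with a log10 UMI count of at least 2.8, a log10 gene count of at least 2.6, at most 5% mitochondrial UMIs and 0 hemoglobin UMIs were kept. They were clustered with scran 1.30.0 on 11865 genes, with 82 genes left out, among them the family and the gene lists. Doublets were called with Scrublet (scanpy 1.11.5) and removed only as an alternative. Counts were summed per mouse, and per mouse and cluster from 20 cells, and tested with edgeR 4.0.16 (quasi-likelihood, Benjamini-Hochberg over all genes, false discovery rate 0.05). Genes needed 1 CPM in 3 sums. In simulated all-cell counts 170 of 200 genes changed 4-fold were recovered. The changed genes were drawn at random from all tested, up or down, with a preset spread between mice. Simulated cluster counts gave 94 in Ccl24- and Arg1-led, 89 in dendritic cell-like and 62 in monocyte-like cells. Recovery was 54 in Hes1- and Ier5-led, 40 in lymphoid-like and 16 in low-UMI macrophage-like cells. All cluster comparisons came from a single fit, and the difference between clusters was tested with an F-test and with limma 3.58.1. DESeq2 1.42.0, other filters, clusterings and depths, and leaving out each mouse were the alternatives. The sums of genes with common 3′ sequence, the removal of control mouse 3 with cKO mouse 5 and the split of dendritic cell-like cells were chosen after seeing the data.

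The text names the 9 members, the targeted gene, the other PYHIN genes, the 3 called genes of each list with the largest change, 5 genes on either side of the locus and the 10 genes most like the family sum. Members and lists were chosen with earlier results of these data known.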

Additional observations from a re-analysis of the deposited data

Results flagged for a closer look

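Of 58 groups of 4 mice, 3 held a mouse far from the others, and chance flags about 1 in 20. After thinning, a UMI of Ifi207 was found in 24.4% of the cells of cKO mouse 5, against 17.2% to 17.5% in the other cKO mice. Ifi204 in dendritic cell-like cells was at 174 CPM in control mouse 3, against 64.2 to 75.7 CPM in the other control mice. Ifi208 in the same cells was at 4.56 CPM in control mouse 4, against 0 to 0.651 CPM in the others.

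The family was also read in barcodes left out for a mitochondrial share above the limit. Its sum there was 449, 607, 730 and 848 CPM in control mice 1 to 4 and 1015, 1899, 2878 and 2156 CPM in cKO mice 5 to 8. Every cKO mouse lay above every control mouse, with means of 1987 ± 769 and 659 ± 171 CPM (SD, n = 4), from 11 to 84 barcodes per mouse. The difference was not tested.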

How the results depend on the processing

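In all cells no member changed its direction and 6 to 9 members were called higher over the alternatives. Of 140 single values 120 kept their direction and side of the threshold, 13 lost a call and 7 gained one. All genes called numbered 510, and 1038 with edgeR's likelihood ratio test, 787 without a low-count filter and 155 to 738 when a mouse was left out. No paired analysis was possible because the labels match no control mouse to a cKO mouse and give no litter.

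Members called in lymphoid-like cells (0) came to 3 with DESeq2, with clustering on all genes and without doublets, 5 without a filter, and 0 to 2 when a mouse was left out. In Hes1- and Ier5-led cells (7) it was 0 with clustering on all genes and 0 to 7 when a mouse was left out. Low-UMI macrophage-like cells (0) gave 2 with clustering on all genes, 1 fitted alone and 2 without a filter. Monocyte-like cells (2) gave 1 with DESeq2, 0 with clustering on all genes, 6 fitted alone, 6 without a filter and 0 to 2 when a mouse was left out. Dendritic cell-like cells (7) gave 2 to 9 when a mouse was left out, the fewest without cKO mouse 8. The causes were not tested.

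Below the threshold, 1 member value of 786 in clusters turned its sign, that of Ifi204 in low-UMI macrophage-like cells, with a log2 fold change of -0.340 without cKO mouse 8 and up to 1.026 with another mouse left out. With a mouse left out, Aim2 ran from -0.196 to 0.058 in all cells, -0.583 to 0.437 in monocyte-like and -0.215 to 0.079 in dendritic cell-like cells, and it was 0.035 in the last with DESeq2 and 0.290 in Hes1- and Ier5-led cells with clustering on all genes. Slc3a2 ran from -0.100 to 0.257 in all cells and from -0.462 to 0.241 in low-UMI macrophage-like cells, where it was 0.209 with clustering on all genes. In all cells it was -0.070 without doublets, -0.385 in myeloid clusters other than dendritic cell-like ones and -0.048 without control mouse 3 and cKO mouse 5.

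The family sum in control macrophage-like cells was 770 CPM over pooled cells. With clustering on all genes it was 2984 CPM in control and 4380 CPM in cKO monocyte-like cells, and the control value then exceeded the 2909 CPM of dendritic cell-like cells. Any member was found in 80.3% of control and 91.1% of cKO cells without thinning and in 70.2% and 92.0% at 2000 UMIs. Of the 10 genes most like the family sum, 6 were shared with a pseudocount of 1 CPM and 0 with control sums only.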
